A study of Mus musculus with 8 samples.

Results

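The 36 genes described here encode proteins of homologous recombination and of the Fanconi anaemia pathway, with the checkpoint kinases and the mismatch sensor that work beside them. They were taken by gene symbol from a table of 42775 genes, and all 36 were found. Bulk RNA sequencing had been carried out on cochleas of wildtype Swiss Webster mice, an outbred strain. The cochleas were dissected at E12.5, kept in culture for 1 day and then given either 10 μM CHIR99021 or its vehicle DMSO for 6 h; the source label and the study's methods give the stage as E14.0. Each group held 4 biological replicates, with 2 libraries labelled female and 2 labelled male, and no transgene or deletion was present in either group. CHIR99021 inhibits GSK3 and thereby stabilises β-catenin, so it is used to switch on canonical Wnt signalling, and the comparison asked which genes respond within hours. Every library came from a whole explant, in which epithelium, mesenchyme, neurons, glia, cartilage and blood cells are mixed. In such bulk samples, fewer cells of a type and less RNA per cell cannot be told apart.

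Homologous recombination repairs a broken chromosome by copying the sister chromatid: the ends are sensed and resected, BRCA1 and BRCA2 help a protein filament form on the bared strand, the filament invades the sister duplex, and the joined molecules are later dissolved or cut. The Fanconi pathway removes links between DNA strands that block replication forks, by means of a core complex that attaches ubiquitin to FANCD2 and FANCI. Because both act on forks and sister chromatids, these genes are used mostly in S and G2 phase of dividing cells, and precursors of the sensory epithelium leave the cell cycle at about these stages.

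The libraries held 64.9 to 75.4 M reads in CHIR99021 cochleas and 66.5 to 89.3 M reads in control cochleas, where a read may stand for a single read or for a pair of the paired-end data, so that 1 read was worth between 0.0112 and 0.0154 CPM, the unit of the table, in which a gene's reads are scaled to a common library total. All 36 genes had a mean of at least 1 CPM, the limit for testing, and 377 to 17510 reads stood behind each of their values. Of 12 known Wnt targets, 11 were higher in CHIR99021 cochleas, with Tcf7 (log2 fold change 1.70) and Nkd1 (2.24) first by p. The epithelial markers Epcam (243 to 302 CPM in CHIR99021, 248 to 306 CPM in control) and Sox2 (41.7 to 47.3 CPM in CHIR99021, 51.1 to 67.7 CPM in control) were present in all libraries. Replicates 1 and 4 stood apart from replicates 2 and 3 in both groups, with more genes detected (22838 to 24249, against 20301 to 20698).

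Upstream sequences are shown for BRCA1 and for BRIP1, the helicase that binds it, since the pair moved in opposite directions, and for Topbp1, a higher gene with letters of an E2F site, E2F being the factor family that drives S phase genes. They are RefSeq sequences on GRCm38.p6, 5′ to 3′ toward the start of the gene and outside every annotated exon. Capitals mark E2F letters or a CCAAT box, on either strand.
Brca1, chr11:101551956-101552105, minus strand: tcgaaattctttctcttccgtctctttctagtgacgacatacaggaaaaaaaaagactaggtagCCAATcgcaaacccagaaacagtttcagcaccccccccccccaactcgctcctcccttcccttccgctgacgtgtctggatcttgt
Brip1, chr11:86201194-86201343, minus strand: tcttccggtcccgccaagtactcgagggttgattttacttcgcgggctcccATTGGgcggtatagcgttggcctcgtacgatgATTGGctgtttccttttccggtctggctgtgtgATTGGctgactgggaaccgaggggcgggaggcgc
Topbp1, chr9:103305083-103305214, plus strand: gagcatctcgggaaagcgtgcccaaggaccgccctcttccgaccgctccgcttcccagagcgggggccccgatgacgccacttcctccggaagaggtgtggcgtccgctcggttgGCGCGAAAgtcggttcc
The Brca1 window holds 1 CCAAT box and the Brip1 window 3, and neither holds E2F letters.

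The levels of the 36 genes spanned a wide range. Per kb of exon, the mean CPM ran from 36.6 for Msh6 to 1.55 for Fancc in CHIR99021 cochleas and from 31.0 for Msh6 to 1.63 for Palb2 in control cochleas. The next genes after Msh6 with CHIR99021 were Topbp1 (19.1), Nbn (14.4), Fance (12.7) and Brip1 (11.1), all in CPM per kb. In control cochleas the order after Msh6 was Brip1 (16.8), Topbp1 (16.6), Nbn (12.4), Fance (11.2) and Rad50 (11.1). The Fanconi targets Fancd2 and Fanci and some recombination genes were at the low end in control cochleas, with 2.11 and 2.91 CPM per kb for that pair, 2.77 for Rad51c and 3.15 for Bard1. Exon lengths here take in all annotated transcripts of a gene, so these levels are low for genes with long unused exons.

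Over the whole list the response was split. Between CHIR99021 and control cochleas, 7 of the 36 genes were higher and 6 were lower at an adjusted p under 0.05, and 23 did not pass (limma on log2(CPM + 1), Benjamini-Hochberg over 14264 genes). This was 19.4% higher and 16.7% lower in the list, against 12.3% higher (1753 genes) and 21.4% lower (3052 genes) among all genes tested. The median log2 fold change was 0.0084 over the 36 genes and -0.047 over all genes tested. The median of the 36 was not stable in sign: it ran from -0.046 without CHIR99021 replicate 1 to 0.048 without CHIR99021 replicate 2, and was 0.063 with TMM scaling. Changes were mostly small, and among the genes that passed only Chek1, Exo1, Brip1 and Fancg moved by more than 0.5 on the log2 scale. With TMM scaling, which sets the bulk of genes to no change, 10 members were higher and 3 were lower, and the split over all genes was 2442 higher to 2360 lower. Left out singly, CHIR99021 replicate 1 reduced the higher genes to 4, and CHIR99021 replicate 3, CHIR99021 replicate 4 or control replicate 3 reduced the lower genes to 3.

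**Figure D1:**
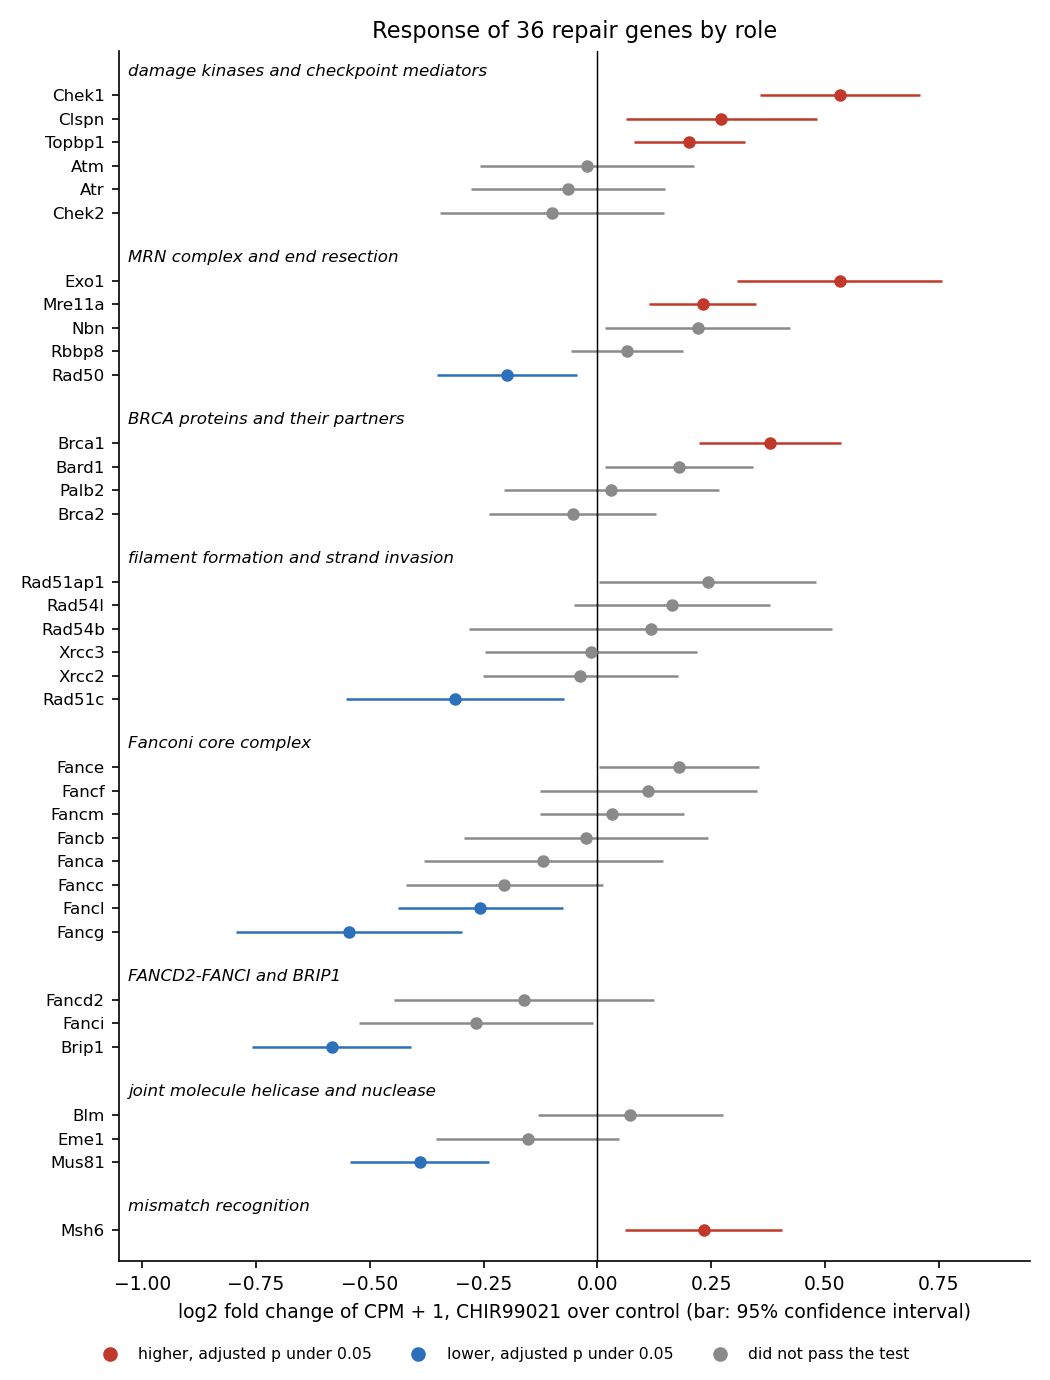
Log2 fold change of CPM + 1 in CHIR99021 over control cochleas for each of the 36 genes, grouped by role, with its 95% confidence interval (limma, n = 4 libraries per group). The 7 genes in red were higher and the 6 in blue were lower; the lower genes lie in every role group except the checkpoint, BRCA and mismatch groups.

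Of the 6 kinases and checkpoint mediators, Chek1, Topbp1 and Clspn rose. ATR is the kinase recruited to bared single-stranded DNA, TOPBP1 activates it, claspin (Clspn) brings it its substrate, and CHEK1 is the effector kinase that holds back the cell cycle. Chek1 had 43.2, 40.2, 45.0 and 40.3 CPM in the 4 CHIR99021 libraries, against 31.2, 27.9, 31.1 and 25.3 CPM in the 4 control libraries. All CHIR99021 libraries were above all control libraries, and the mean was 45.9% higher (log2 fold change 0.53, SE 0.080, adjusted p = 0.0006). Topbp1 had 226, 204, 209 and 219 CPM in CHIR99021 cochleas and 196, 182, 191 and 176 CPM in control cochleas, again without overlap (0.20, SE 0.055, adjusted p = 0.0169). Clspn had 88.6, 63.7, 78.3 and 79.9 CPM with CHIR99021 and 69.1, 58.4, 66.7 and 61.1 CPM in control, where CHIR99021 replicate 2 lay within the control range (0.27, adjusted p = 0.0473).

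The kinases that start the signal did not pass. Atr averaged 50.3 ± 5.7 CPM in CHIR99021 and 52.6 ± 6.1 CPM in control cochleas (SD, n = 4 each), and its log2 fold change of -0.06 had a 95% interval of -0.28 to 0.15. Atm, the kinase activated by double-strand breaks, averaged 63.9 ± 8.8 CPM in CHIR99021 and 64.8 ± 7.0 CPM in control (interval -0.26 to 0.21). Chek2, the effector kinase of the ATM arm, averaged 12.2 ± 1.8 CPM and 13.1 ± 1.1 CPM in CHIR99021 and control cochleas (interval -0.35 to 0.15). Within each library, the ratio of Chek1 to Chek2 per kb of exon was 1.93, 2.60, 2.44 and 2.11 with CHIR99021 and 1.40, 1.53, 1.55 and 1.26 in control. Chek1 alone already separated the groups, so the separation of this ratio is a description. Chek1 passed the test in all 21 alternative analyses. Topbp1 did not pass without CHIR99021 replicate 1 (adjusted p = 0.0562), and Clspn did not pass without CHIR99021 replicate 1, 3 or 4 or without control replicate 2, 3 or 4 (adjusted p = 0.0543 to 0.127).

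At the step of end resection, Exo1 rose and the subunits of the MRN complex diverged. EXO1 is the exonuclease that chews back one strand over long distances, in recombination as in mismatch repair. Exo1 had 70.5, 53.7, 71.7 and 65.9 CPM in CHIR99021 libraries, against 46.1, 39.98, 51.3 and 42.0 CPM in control libraries. Every CHIR99021 library was above every control library, by means of 45.9% (log2 fold change 0.53, SE 0.10, adjusted p = 0.0025). MRE11, RAD50 and NBN together form the sensor that binds broken ends and makes the first cut. Mre11a, the gene of the nuclease subunit, had 60.7, 57.5, 60.7 and 63.7 CPM with CHIR99021 and 52.6, 52.5, 50.7 and 50.2 CPM in control (0.23, SE 0.054, adjusted p = 0.0073). Rad50, the gene of the tethering ATPase, had 53.7, 49.97, 49.1 and 54.1 CPM with CHIR99021 and 66.7, 54.8, 57.3 and 59.6 CPM in control (-0.20, SE 0.070, adjusted p = 0.0488). Neither gene overlapped between the groups, and they moved in opposite directions.

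The ratio of Rad50 to Mre11a per kb of exon was 0.9749, 0.958, 0.892 and 0.937 in CHIR99021 libraries, against 1.40, 1.151, 1.25 and 1.31 in control libraries. Both genes had already separated the groups in opposite directions, so this ratio too is a description. Nbn, which codes for the subunit that recruits ATM, averaged 36.6 ± 1.3 CPM in CHIR99021 and 31.5 ± 4.4 CPM in control cochleas (0.22, adjusted p = 0.088), and passed with the replicate number as a block (adjusted p = 0.0347). Over all genes the blocked analysis called 15.4% higher and 26.1% lower; in the list it called 8 higher and 7 lower genes, the 13 above with Nbn and Fanci. Rbbp8, whose product CtIP starts resection, averaged 51.0 ± 1.0 CPM in CHIR99021 and 48.7 ± 2.3 CPM in control (interval -0.06 to 0.19). Rad50 stood close to the threshold: it did not pass with TMM scaling, with edgeR, with DESeq2 or when any library other than control replicate 2 was left out (adjusted p = 0.0553 to 0.124 for those 7 libraries).

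**Figure D2:**
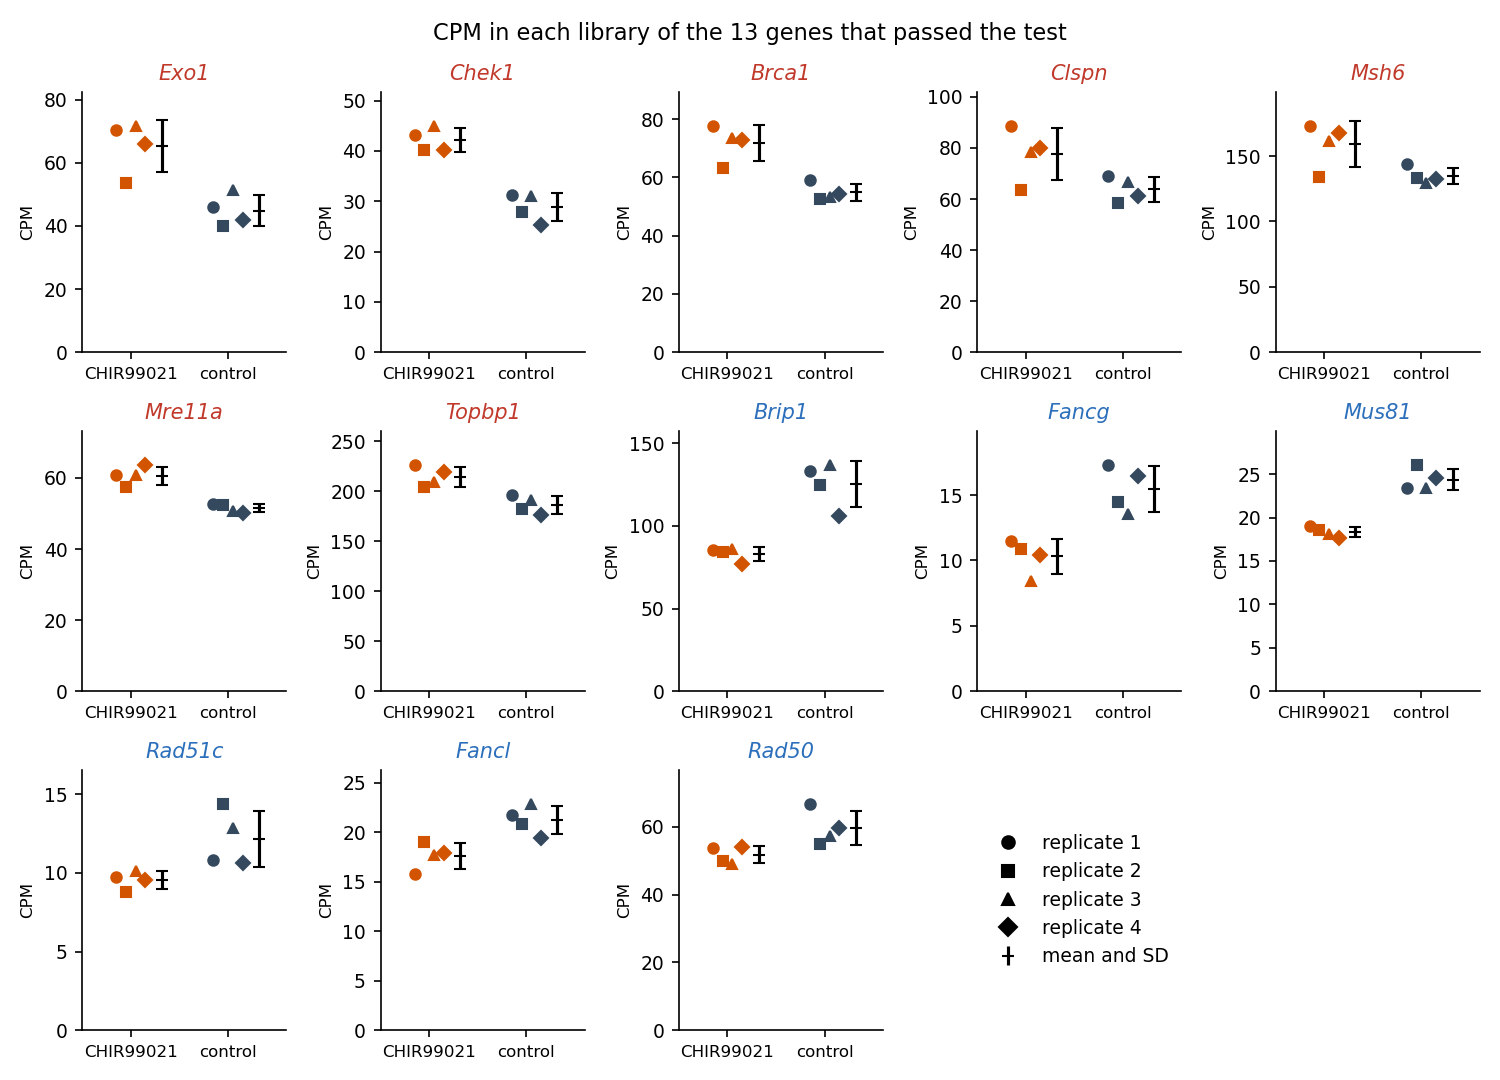
CPM in each of the 8 libraries for the 13 genes that passed the test, with CHIR99021 left of control, a symbol for each replicate number, and bars for mean and SD. The gene names are red where CHIR99021 was higher and blue where it was lower; of the 13, only Clspn and Msh6 overlap between the groups, and CHIR99021 replicate 2 is the lowest CHIR99021 library in all 7 higher genes.

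Of BRCA1 and its 3 partners in loading the filament, Brca1 alone passed the test, as higher. BRCA1 pairs with BARD1 as a ubiquitin ligase, PALB2 bridges it to BRCA2, and BRCA2 acts where the filament is loaded. Brca1 had 77.6, 63.3, 73.3 and 72.9 CPM in CHIR99021 libraries and 59.2, 52.7, 53.3 and 54.3 CPM in control libraries, 30.8% higher by means and without overlap (log2 fold change 0.38, SE 0.071, adjusted p = 0.0021). Bard1 had 21.3, 18.9, 20.6 and 20.4 CPM with CHIR99021 and 18.6, 17.2, 18.6 and 16.8 CPM in control. Its libraries did not overlap either, but it did not pass (0.18, adjusted p = 0.085), although it did with TMM scaling (0.24, adjusted p = 0.0299). Brca2 averaged 43.4 ± 4.0 CPM in CHIR99021 and 45.0 ± 3.8 CPM in control (interval -0.24 to 0.13), and Palb2 averaged 12.3 ± 1.6 CPM and 11.99 ± 1.1 CPM (interval -0.21 to 0.27). The ratio of Brca2 to Brca1 per kb of exon was 0.362, 0.370, 0.380 and 0.399 in CHIR99021 libraries, against 0.531, 0.501, 0.496 and 0.522 in control libraries. Brca1 alone already separated the groups, so this is a description.

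Brip1 showed the largest fall of the 36 genes over the 8 libraries. BRIP1, also named FANCJ, is a helicase that binds BRCA1 and acts in both recombination and link repair. Brip1 had 85.5, 84.0, 86.0 and 76.7 CPM in CHIR99021 libraries and 133, 125, 137 and 106 CPM in control libraries. The groups did not overlap (log2 fold change -0.58, SE 0.079, adjusted p = 0.0003), and Brip1 passed in all 21 alternative analyses. The ratio of Brip1 to Brca1 per kb of exon was 1.26, 1.52, 1.34 and 1.2045 with CHIR99021, against 2.58, 2.71, 2.94 and 2.24 in control; the pair was chosen for its opposite directions, so this separation is a description. Brip1 ranked second of the 36 genes by CPM per kb in control cochleas (16.8, after Msh6 at 31.0), and Brca1 had 8.41 CPM per kb with CHIR99021 and 6.43 CPM per kb in control.

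**Figure D3:**
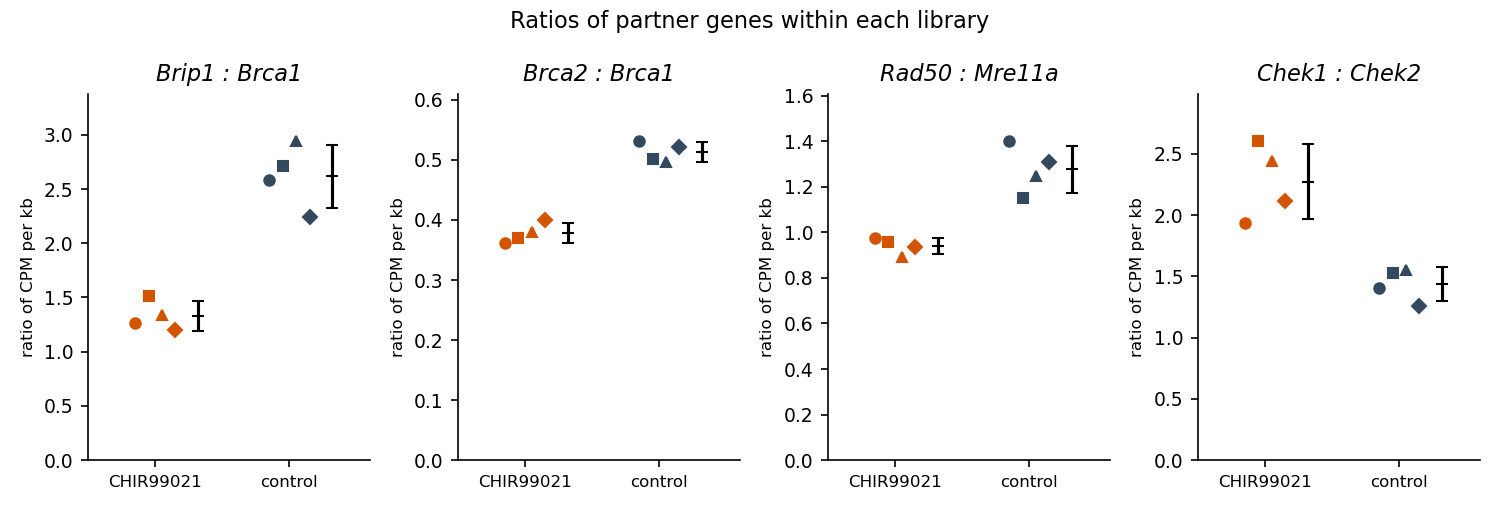
Ratio of the CPM per kb of exon of 4 pairs of partner genes within each of the 8 libraries, CHIR99021 left of control, with mean and SD (n = 4 per group). None of these 4 ratios overlaps between the groups; they were picked from 8 ratios after their values were seen, 2 of the others (Mus81 to Eme1 and Fanci to Fancd2) overlapped, and no test was made.

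Of the 6 genes of filament formation and strand invasion, 1 passed the test. RAD51C, XRCC2 and XRCC3 help the filament form, and RAD51AP1, RAD54L and RAD54B help it invade the sister duplex. Rad51c passed as lower, with 9.76, 8.75, 10.1 and 9.52 CPM in CHIR99021 libraries and 10.8, 14.4, 12.9 and 10.6 CPM in control libraries (log2 fold change -0.31, SE 0.11, adjusted p = 0.0469). The gap between the lowest control and the highest CHIR99021 library was small, and Rad51c did not pass without any 1 of the CHIR99021 libraries or without control replicate 2 or 3 (adjusted p = 0.0629 to 0.123), nor with TMM scaling, edgeR or DESeq2. Rad51ap1 averaged 22.4 ± 2.8 CPM in CHIR99021 and 18.7 ± 2.1 CPM in control (0.24, adjusted p = 0.109), and passed when CHIR99021 replicate 2 was left out (0.33, adjusted p = 0.0246). Rad54l averaged 34.3 ± 4.7 CPM and 30.3 ± 2.0 CPM in CHIR99021 and control (0.16, adjusted p = 0.22), and it too passed without CHIR99021 replicate 2 (0.26, adjusted p = 0.0334). Xrcc2, Xrcc3 and Rad54b had log2 fold changes of -0.04, -0.01 and 0.12, with intervals that ran from -0.28 at the lowest to 0.52 at the highest. The widest of these was that of Rad54b, at 14.1 ± 3.5 CPM in CHIR99021 and 12.9 ± 2.8 CPM in control, while Xrcc2 averaged 17.98 ± 2.4 CPM and 18.4 ± 0.83 CPM and Xrcc3 averaged 10.3 ± 1.5 CPM and 10.4 ± 0.34 CPM. Exons of Rad54b share 35.8% of their length with Fsbp on the same strand, so reads of these 2 genes may have been divided between them.

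In the Fanconi core complex, 2 of 8 genes fell and none rose, though with TMM scaling 1 fell and 1 rose; counts this small are near the shares over all genes (21.4% lower, 12.3% higher). Fancg, a scaffold of the core, had 11.5, 10.9, 8.45 and 10.4 CPM in CHIR99021 libraries, against 17.3, 14.5, 13.6 and 16.5 CPM in control libraries. Its groups did not overlap, and the mean was 33.4% lower (log2 fold change -0.54, SE 0.11, adjusted p = 0.0039). Fancl, the ubiquitin ligase that acts on FANCD2 and FANCI, had 15.8, 19.0, 17.6 and 17.9 CPM with CHIR99021 and 21.7, 20.9, 22.8 and 19.4 CPM in control (-0.26, SE 0.083, adjusted p = 0.0341). It too did not overlap, but it did not pass with TMM scaling, edgeR or DESeq2, nor without CHIR99021 replicate 1, 3 or 4 or control replicate 1, 2 or 3 (adjusted p = 0.0608 to 0.101). Exons of Fancl overlap those of Vrk2 on the other strand over 13.7% of their length, and whether reads were counted by strand is not given in the sources used here.

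The other core genes did not pass. Fance, which bridges the core to FANCD2, averaged 40.5 ± 3.1 CPM in CHIR99021 and 35.6 ± 3.0 CPM in control (0.18, adjusted p = 0.108), and passed with TMM scaling (0.24, adjusted p = 0.0372). Fancc averaged 12.95 ± 1.3 CPM and 15.1 ± 1.4 CPM in CHIR99021 and control (-0.20, adjusted p = 0.135). Fanca, Fancb, Fancf and Fancm, the last of which codes for the translocase that anchors the core to DNA, had log2 fold changes of -0.12, -0.02, 0.11 and 0.03, and each interval included 0. Fanca averaged 36.04 ± 6.7 CPM in CHIR99021 and 38.913 ± 4.0 CPM in control, and Fancm averaged 56.1 ± 2.0 CPM and 55.0 ± 5.4 CPM. Fancb, the scarcest of the 36 genes by CPM, averaged 6.82 ± 0.74 CPM in CHIR99021 and 6.97 ± 1.05 CPM in control, and Fancf averaged 9.08 ± 0.63 CPM and 8.37 ± 1.18 CPM. In these 4 genes the CHIR99021 and control libraries overlapped.

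The 2 targets of the core did not pass. Fanci averaged 13.9 ± 2.4 CPM in CHIR99021 and 16.8 ± 1.2 CPM in control cochleas, and was lower in all 4 same-numbered pairs (log2 fold change -0.27, adjusted p = 0.103). It passed with the replicate number as a block (adjusted p = 0.0351) and without CHIR99021 replicate 1 (-0.35, adjusted p = 0.0433). Fancd2 averaged 15.0 ± 2.6 CPM and 16.8 ± 2.0 CPM in CHIR99021 and control, and its interval of -0.45 to 0.12 included 0.

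Among the enzymes that resolve joined molecules, Mus81 fell. MUS81 and EME1 form a nuclease that cuts such molecules, while the BLM helicase dissolves them. Mus81 had 19.0, 18.6, 18.2 and 17.6 CPM in CHIR99021 libraries and 23.4, 26.1, 23.4 and 24.6 CPM in control libraries, with 24.7% less by means and no overlap (log2 fold change -0.39, SE 0.069, adjusted p = 0.0016). Eme1 averaged 17.5 ± 1.8 CPM in CHIR99021 and 19.5 ± 1.5 CPM in control and was lower in 4 of 4 same-numbered pairs, without passing (-0.15, adjusted p = 0.226). Blm averaged 61.1 ± 4.9 CPM and 58.3 ± 7.8 CPM in CHIR99021 and control (interval -0.13 to 0.28).

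Msh6, whose product finds mismatched bases, was the most abundant of the 36 genes per kb. It had 173, 134.0, 162 and 168 CPM in CHIR99021 libraries and 144, 133, 129 and 133 CPM in control libraries, where CHIR99021 replicate 2 fell among the controls (log2 fold change 0.23, SE 0.078, adjusted p = 0.0401). Msh6 did not pass without CHIR99021 replicate 1, 3 or 4 or without control replicate 2, 3 or 4 (adjusted p = 0.0803 to 0.110).

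CHIR99021 and control libraries did not overlap for 6 higher genes (Chek1, Topbp1, Mre11a, Exo1, Brca1 and Bard1) and 6 lower genes (Rad50, Rad51c, Fancg, Fancl, Brip1 and Mus81), where 12.7% of all genes tested were higher and 20.6% were lower without overlap. Within replicates 1 and 4 alone, 6 members were higher, where 1154 of all genes tested were higher, and 3 members were lower. For those 3 the matching count over all genes is not given here, so they are not read as a result about the members. Within replicates 2 and 3 alone, Chek1 was higher (0.51, adjusted p = 0.0243) and Brip1 was lower (-0.62, adjusted p = 0.0039). There, 611 of all genes tested were higher and 1057 were lower. All 13 genes that passed had the same sign in both of these sets. CHIR99021 replicate 2 was the lowest CHIR99021 library in 25 of the 36 genes, and the share over all genes is not given here. It also had the lowest CHIR99021 sum for the DNA replication genes (2349 CPM) and the mitosis genes (1789 CPM) described below. For the Wnt targets replicate 3 had the lowest sum (2130 CPM), and for the further recombination genes replicate 4 did (1118 CPM).

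**Figure D4:**
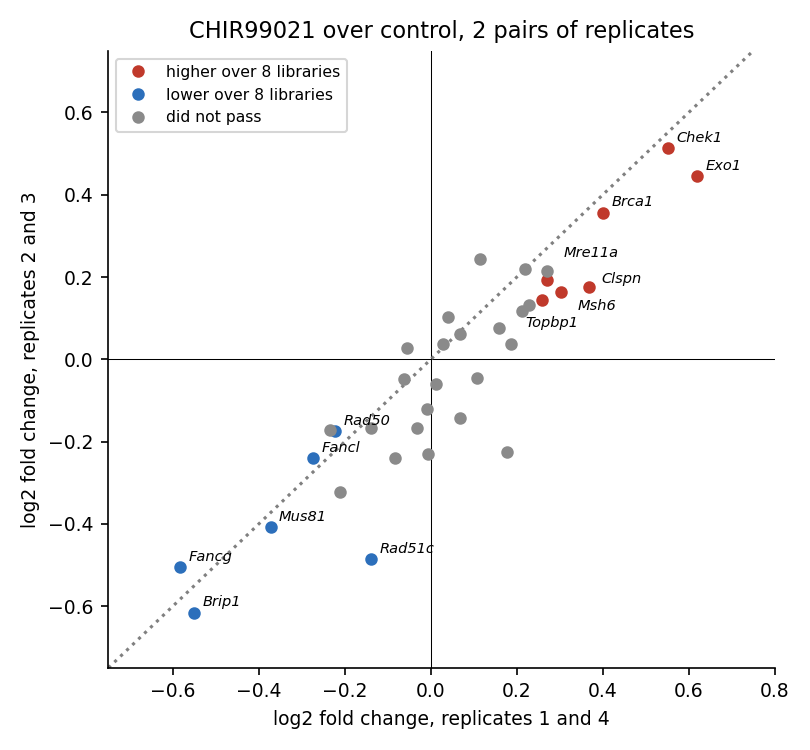
Log2 fold change of CPM + 1, CHIR99021 over control, from replicates 2 and 3 (vertical axis) against that from replicates 1 and 4 (horizontal axis), 1 point per gene for the 36 genes; the dotted line marks equality. Chek1, Exo1 and Brca1 lie at the upper right and Brip1, Fancg and Mus81 at the lower left by both sets, while Rad51c was at -0.14 in replicates 1 and 4 and -0.49 in replicates 2 and 3.

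No member showed a difference in response between male and female libraries that passed the test. The interaction of treatment and sex passed for 0 of 14264 genes and for 0 of the 36 (limma; 181 genes had an unadjusted p under 0.05, none of them a member; edgeR also gave 0 genes and 0 members). With the replicate number as a block, 2 genes passed, neither of them a member. The smallest unadjusted p among the members was 0.0741, for Xrcc3, and with 2 libraries of each sex per group only large differences could have been seen.

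Other genes of the same pathways also went both ways, and their counts are to be read against the 12.3% of all genes tested that were higher and the 21.4% that were lower. Of 25 further recombination genes, 2 were higher and 4 were lower in CHIR99021 cochleas, led by Dna2 (25.2, 20.7, 27.5 and 24.5 CPM with CHIR99021, 13.9, 12.1, 11.9 and 12.2 CPM in control, log2 fold change 0.91), a resection nuclease and helicase that works beside EXO1. Wrn, the Werner helicase, fell (-0.39, adjusted p = 0.0009). Of 14 further Fanconi genes, 3 were higher and 1 was lower. USP1 and WDR48 together remove the ubiquitin from FANCD2, and their genes moved apart: Usp1 averaged 157 ± 12.8 CPM in CHIR99021 and 121 ± 14.5 CPM in control (0.37, adjusted p = 0.0077), while Wdr48 averaged 69.9 ± 2.4 CPM and 97.2 ± 3.6 CPM (-0.47, adjusted p = 7.9e-05). Uhrf1, whose product binds both hemimethylated DNA and strand links, rose (0.56, adjusted p = 0.0002).

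Of 18 further checkpoint and break signalling genes, 2 rose and 2 fell, with Rnf168 (0.35) and Babam1 (-0.36) first by p; RNF168 places ubiquitin on chromatin at breaks and BABAM1 belongs to a BRCA1 complex. The end joining genes, which repair breaks without a template, held 0 higher and 3 lower of 9, among them Nhej1 (-0.67) and Prkdc (-0.55). Base and nucleotide excision repair held 4 higher and 3 lower of 22, with Ung (1.07) and Fen1 (0.49) in front.

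Most DNA replication genes were higher. Of 27 genes of origin licensing, fork and nucleotide supply, 18 were higher, Gins4 was lower (-0.36, adjusted p = 0.0051) and 8 did not pass, with a median log2 fold change of 0.34. Gins4, which codes for a subunit of the fork helicase, is named here because it was the exception. Their summed CPM was 2635, 2349, 2705 and 2479 in CHIR99021 libraries and 2047, 1939, 2129 and 1943 in control libraries, without overlap. Cdc6 (0.77, adjusted p = 7.5e-05) and Cdt1 (0.66, adjusted p = 7.9e-05), which load the replicative helicase at origins, were first by p. Of 25 mitosis genes, 0 were higher and 5 were lower, with a median of -0.16, a count near the 21.4% lower among all genes. The blocked analysis gave 11 lower, against 26.1% of all genes. Their summed CPM was 2347, 1789, 2240 and 2095 in CHIR99021 libraries, against 2612, 2233, 2361 and 2277 in control libraries, with Cdc20 (-0.30) and Ndc80 (-0.38) first by p. The part of these shifts in the repair genes' values was not tested.

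**Figure D5:**
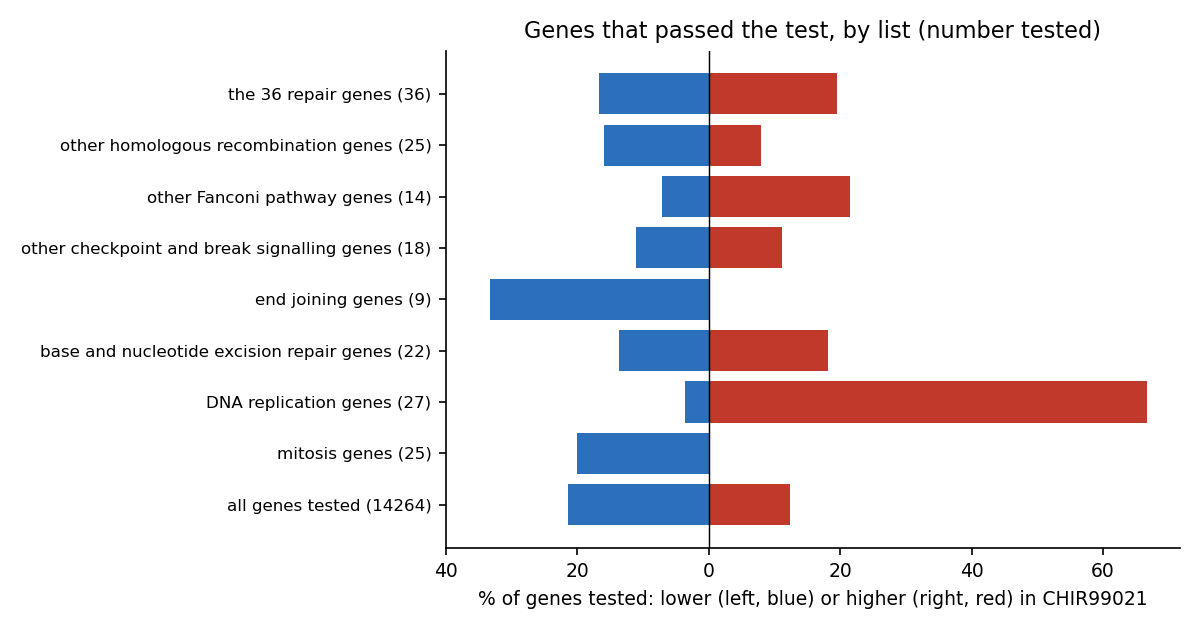
Share of the genes tested in each list that were lower (bars to the left) or higher (bars to the right) in CHIR99021 cochleas at an adjusted p under 0.05 (limma), with the number tested in brackets and all 14264 genes in the bottom row. The 36 repair genes reach to both sides, DNA replication genes reach mostly to the right (18 of 27) and mitosis and end joining genes reach only to the left.

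Markers of several other cell types were lower as well. Their counts are to be read against the 12.3% of all genes tested that were higher and the 21.4% that were lower. Neuron markers summed to 118 to 152 CPM in CHIR99021 and 206 to 225 CPM in control libraries (3 of 8 tested lower), with Neurog1 and Prph below 1 CPM on average in both groups. Isl1 was the largest of these, at 64.4 CPM in CHIR99021 and 118 CPM in control. In the paper's mice Cre driven by Isl1 recombined in the cochlear duct, so Isl1 reads may not come from neurons alone. Tubb3 averaged 35.6 CPM and 36.9 CPM and did not pass, while Stmn2 and Nefl passed as lower. Glia markers summed to 471 to 504 CPM and 656 to 717 CPM in CHIR99021 and control (4 of 6 lower), cartilage markers to 3543 to 4034 CPM and 4497 to 5831 CPM (4 of 6 lower), and mesenchyme markers to 2063 to 2232 CPM and 2400 to 2460 CPM (4 of 9 lower, 2 higher). Most of the glia sum was Erbb3 (269 CPM in CHIR99021, 420 CPM in control) and Sox10 (195 and 233 CPM). Most of the cartilage sum was Col2a1 (3027 and 4050 CPM). The largest part of the mesenchyme sum was Vim (932 and 1108 CPM). The 2 higher mesenchyme markers were Prrx1 (308 and 180 CPM, 0.78), first of its list by p, and Twist1 (62.0 and 51.4 CPM, 0.26). Epithelial markers summed to 1820 to 1931 CPM in CHIR99021 and 1771 to 1941 CPM in control (6 of 13 lower, 2 higher). The 2 higher ones were Jag1, a Notch ligand gene (1.25), and Fgf10 (0.48). With Jag1 left out and Fgf10 kept, the other 12 summed to 1467 to 1569 CPM in CHIR99021 and 1611 to 1772 CPM in control, without overlap. Jag1 was left out for its rise in these same data, so this separation is a description. The sums were not rescaled by TMM. Blood and endothelium markers summed to 533 to 648 CPM in CHIR99021 and 526 to 891 CPM in control (1 of 9 lower). With TMM scaling Sox10 (adjusted p = 0.053), Vim (0.051) and Otoa (0.058) no longer passed as lower, and Tbx18 (0.033) passed as higher. Whether these shifts bear on the repair genes was not tested.

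Promoters were available for 29 of the 36 genes, as windows of 250 bases before and 50 bases after the RefSeq start. Exo1 and Rad50, which passed the test, were among the genes without one. The shares over all genes below are from every gene with such a promoter, not only from the genes tested here, so they are not matched for expression. E2F letters (TTTCGCGC, TTTGGCGC, TTTCCCGC or TTTGCCGC, both strands) were in 8 of the 29, against 2.61% of 27025 genes. They were in 3 of 6 higher genes (Topbp1, Clspn and Msh6), 2 of 5 lower genes (Rad51c and Fancg) and 3 of 18 that did not pass (Chek2, Bard1 and Brca2), so they were found on both sides of the response. In Topbp1 they lie at -129 to -122 from the start, as capitals in the sequence above. The TCF/LEF letters ATCAAAG, at which β-catenin partners bind, were in 0 of the 29 and in 4.29% of all genes. CCAAT boxes were in 18 of the 29 and 41.1% of all genes, and the letters TTTGAA of the CHR element, known from late cell cycle genes, in 2 of the 29 and 20.2% of all genes. A match of letters is a description and not a site of binding.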

How the data were processed

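The authors sequenced polyadenylated, strand-specific RNA as 75 bp paired-end fragments and, per the submitters' processing notes, mapped it to GRCm38 with HISAT2; the counter is not given in the sources used here. The deposited table gives CPM per gene and library, as the authors computed them. It also holds the authors' fold ratio, log2 fold change, p-value and false discovery rate columns, which were not used.

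Libraries were grouped by their titles. Total reads were recovered from the CPM step of 1 read per library, and 100% of values were whole within 0.001 read. Genes with a mean of at least 1 CPM were fitted by limma 3.58.1 (R 4.3.3) with a trend on log2(CPM + 1), 4 CHIR99021 against 4 control libraries, two-sided, with Benjamini-Hochberg adjustment over all 14264 genes and a threshold of 0.05. A fold change on this scale understates the change of low genes. Alternatives were a replicate block, other pseudocounts and filters, TMM scaling, edgeR 4.0.16 and DESeq2 1.42.0 on the recovered reads, sex or the split of replicates 1 and 4 from 2 and 3 as a covariate, each of those sets alone, and each library left out. Tests were checked on simulated counts, drawn independently for each library with as many raised as lowered genes. These held no pairing, no split of the replicates and no shift of scaling between groups, so they do not cover those settings. Same-numbered libraries of the 2 groups deviated together (r = 0.514, 0.247, 0.352 and 0.337 for replicates 1 to 4 over the genes tested). The highest r of each CHIR99021 library with a control library of another number was -0.0586, 0.168, -0.0452 and 0.1245. The numbers may therefore pair the samples, with a small margin for replicate 2. This comes from the data, not from the labels. The main test leaves such a pairing out and the replicate block takes it in. The design text calls the libraries biological replicates but names no animals or litters, so p-values measure the spread between these libraries. Exon lengths and overlaps came from GENCODE M21, which held 99.3% of the gene identifiers; 7 members share over 10% of their exons with another gene (Rad54l, Rad54b, Fanca, Fancc, Fancf, Fancl and Fanci).

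The 36 genes, their role groups and all other lists were chosen with earlier results of these data known. Values per library were given for every gene that passed, and of each other list of repair, replication, mitosis or Wnt genes the 2 with the smallest p were named; Usp1 was added as the partner of a named gene, and the ratios of partner genes were chosen, after values were seen. Some genes are not reported here.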

Additional observations from a re-analysis of the deposited data

Results flagged for a closer look

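In 2 of the 72 sets of 4 libraries (36 genes in 2 groups), 1 library lay far from the others by Dixon's test, and chance flags about 1 set in 20. Fancm had 59.1 CPM in CHIR99021 replicate 1, against 54.8 to 55.4 CPM in the other CHIR99021 libraries. Blm had 69.8 CPM in control replicate 1, against 53.3 to 56.0 CPM in the other control libraries. Neither gene passed the comparison of CHIR99021 with control.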

How the results depend on the processing

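Of the 13 genes that passed, Chek1 and Brip1 did so in all 21 alternatives, and Brca1, Exo1, Mre11a, Fancg and Mus81 in all but replicates 2 and 3 alone (adjusted p = 0.0514 to 0.191). Topbp1 passed in 18, Clspn and Msh6 in 13 each, Fancl in 8, Rad51c in 7 and Rad50 in 6. No gene that passed changed sign. The replicate block added Nbn and Fanci and changed no other call among the members; it gave 2 genes for the interaction with sex, where no block gave 0. Fewer members were lower with no filter (3), TMM (3), edgeR (3), edgeR with DESeq2 size factors (3), DESeq2 (3), replicates 1 and 4 (3) and replicates 2 and 3 (1). The lower genes over the whole table also fell, from 3052 to 2588 with no filter, and with TMM scaling as given above. These drops are therefore not read as a trait of the members. More members were higher with DESeq2 or its size factors in edgeR (11 each) and fewer in replicates 2 and 3 (1). With 1 library left out, 4 to 9 members were higher and 3 to 5 lower, and 1369 to 1723 of all genes were higher and 2501 to 2872 lower. Over all genes, 2811 were higher with DESeq2, 1154 in replicates 1 and 4 and 611 in replicates 2 and 3, where 1057 were lower. The cause was not tested; each of these sets has 2 libraries per group.

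Signs turned only in 8 genes that did not pass, all near 0. In the order TMM, edgeR, edgeR with DESeq2 size factors and DESeq2, the log2 fold changes were 0.036, 0.047, 0.050 and 0.050 for Atm, 0.0038, 0.011, 0.015 and 0.015 for Brca2, 0.019, 0.034, 0.037 and 0.037 for Xrcc2, 0.040, 0.060, 0.064 and 0.064 for Xrcc3, and 0.028, 0.034, 0.037 and 0.038 for Fancb. For Atr they were 0.00068, 0.0037 and 0.0037 in the last 3. Replicates 1 and 4 gave 0.013 for Atm, 0.068 for Xrcc2 and 0.18 for Fancb, and replicates 2 and 3 gave -0.046 for Palb2 and 0.026 for Xrcc3. With 1 library left out the values ran from -0.099 to 0.074 for Atm, -0.13 to 0.0074 for Atr, -0.089 to 0.013 for Brca2, -0.11 to 0.017 for Xrcc2, -0.080 to 0.046 for Xrcc3, -0.089 to 0.059 for Fancb, -0.040 to 0.098 for Palb2 and -0.0061 to 0.093 for Fancm. Each value of the 36 genes rests on at least 377 reads.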
